A study of Mus musculus with 2 samples.

Results

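The genes described here are the collagen genes that remain when the main basement membrane chains (Col4a1 to Col4a4) and the main interstitial chains (Col1a1, Col1a2 and Col3a1) are set aside. They were taken by symbol from the protein-coding genes of GENCODE release M21 on chromosomes 1 to 19 of the mouse genome build mm10 (GRCm38), which gave 35 genes of 20807. The name of the group is only approximate, because Col15a1, Col18a1, Col7a1 and Col17a1 are known to act at or next to basement membranes; here the group is what the symbol rule selects. All measurements came from whole kidney of female B6CASTF1/J mice aged 36 days, an F1 hybrid between a C57BL/6 and a CAST/EiJ parent strain. DNase-seq, which maps chromatin that the nuclease DNase I can cut, was run on 2 libraries, numbered by the labels as biological replicates 1 and 2. The labels number the females separately but give both the same donor entry, so the spread between the libraries may be partly technical. The single group has no control, treatment or second tissue, and no test between conditions could be made. RNA was not part of these data.

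Collagens are triple-helical proteins of the extracellular matrix. Fibrillar collagens assemble into cross-banded fibrils, FACIT collagens (fibril-associated collagens with interrupted triple helices) sit on the surface of those fibrils, collagen VI forms beaded filaments, and the remaining families form networks, anchoring fibrils or membrane-bound proteins. In kidney, fibroblasts, mural cells and other stromal cells make most of the interstitial collagen, and many members are best known from cartilage, skin, muscle or nerve.

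Replicate 1 had 124504 peaks and replicate 2 had 68056, with a median peak height of 1.33 and 1.46. Peak height is the authors' scaled signal, whose scale the sources used here do not state, so heights are compared within a library and given side by side across libraries. A shared peak is a replicate 1 peak that overlaps a replicate 2 peak by at least 1 base; 52.7% of replicate 1 peaks and 96.3% of replicate 2 peaks had a counterpart. A promoter is 1 kb on each side of any annotated start site of a gene, and a footprint is a short protected stretch that the authors called within cut chromatin. Because the tissue was whole, fewer cells of a type and less accessibility per cell cannot be told apart.

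The letters of some of the regions described below are given first. The first pair are the highest promoter peak of the group and the promoter peak of the member with the second largest number of shared peaks. The others are, for 3 members, the highest peak more than 1 kb from any start site. Each is written 5′ to 3′ on the strand of its gene, from the RefSeq GRCm38.p6 sequence of the reference strain, without untranslated exon bases. Capitals mark bases that lie in footprints of both libraries.
Col16a1 promoter, chr4:130047741-130047839, plus strand: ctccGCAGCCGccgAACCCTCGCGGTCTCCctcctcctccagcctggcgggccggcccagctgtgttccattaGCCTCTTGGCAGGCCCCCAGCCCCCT
Col27a1 promoter, chr4:63215241-63215434, plus strand: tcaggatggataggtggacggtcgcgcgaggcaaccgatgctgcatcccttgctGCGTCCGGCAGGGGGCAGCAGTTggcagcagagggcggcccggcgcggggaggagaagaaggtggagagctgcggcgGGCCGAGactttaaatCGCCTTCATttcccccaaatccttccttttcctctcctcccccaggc
Col18a1 intron, chr10:77128021-77128300, minus strand: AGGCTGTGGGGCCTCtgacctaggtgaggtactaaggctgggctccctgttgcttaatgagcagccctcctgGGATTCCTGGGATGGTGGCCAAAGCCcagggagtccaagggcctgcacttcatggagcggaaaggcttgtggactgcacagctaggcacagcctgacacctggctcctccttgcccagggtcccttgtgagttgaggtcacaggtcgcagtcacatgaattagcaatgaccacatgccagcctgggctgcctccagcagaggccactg
Col23a1 intron, chr11:51539721-51539920, plus strand: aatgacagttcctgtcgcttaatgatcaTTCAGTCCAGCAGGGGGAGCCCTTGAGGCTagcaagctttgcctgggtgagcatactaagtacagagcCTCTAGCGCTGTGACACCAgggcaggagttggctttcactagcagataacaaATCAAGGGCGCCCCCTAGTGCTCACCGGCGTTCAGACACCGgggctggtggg
Col12a1 intron, chr9:79610381-79610580, minus strand: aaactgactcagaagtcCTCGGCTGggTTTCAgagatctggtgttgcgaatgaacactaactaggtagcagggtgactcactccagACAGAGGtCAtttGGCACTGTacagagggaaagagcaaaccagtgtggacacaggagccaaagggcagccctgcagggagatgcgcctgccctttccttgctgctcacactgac

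Fewer collagen promoters than promoters in general carried a peak, and those that did were mostly low. Of the 35 members, 15 (42.9%) had a promoter peak in both libraries, where the share over all 20807 genes was 62.2%. In replicate 1, 20 members (57.1%) had one beside 68.4% of all genes, and in replicate 2 the count was 15 (42.9%) beside 62.3%. A further 5 members (14.3%) had a promoter peak in replicate 1 and not in replicate 2, a state found in 6.22% of all genes. The remaining 15 members (42.9%) had none in either library, beside 31.5% of all genes. Of the members with a promoter peak in replicate 1, 75% kept one in replicate 2, and of all such genes 90.9% did. A promoter footprint in both libraries was found for 16 members (45.7%), beside 63.6% of all genes. Counting only footprints inside a peak, it was found for 12 members, beside 61% of all genes.

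The median height of a gene's strongest promoter peak was 1.61 in replicate 1 and 1.25 in replicate 2 for the members with a peak, and 7.47 and 5.43 over all genes with one. In replicate 1, 19 of the 20 members lay below the median of all genes, 17 in the lowest 25% and 9 in the lowest 10%. In replicate 2, 14 of the 15 lay below the median, and the same number lay in the lowest 25%. The member above the median in both libraries was Col16a1. With only the higher 50% of each library's peaks, 4 members had a promoter peak in both libraries (Col16a1, Col18a1, Col25a1 and Col6a2), while 54.3% of all genes still did.

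**Figure D1:**
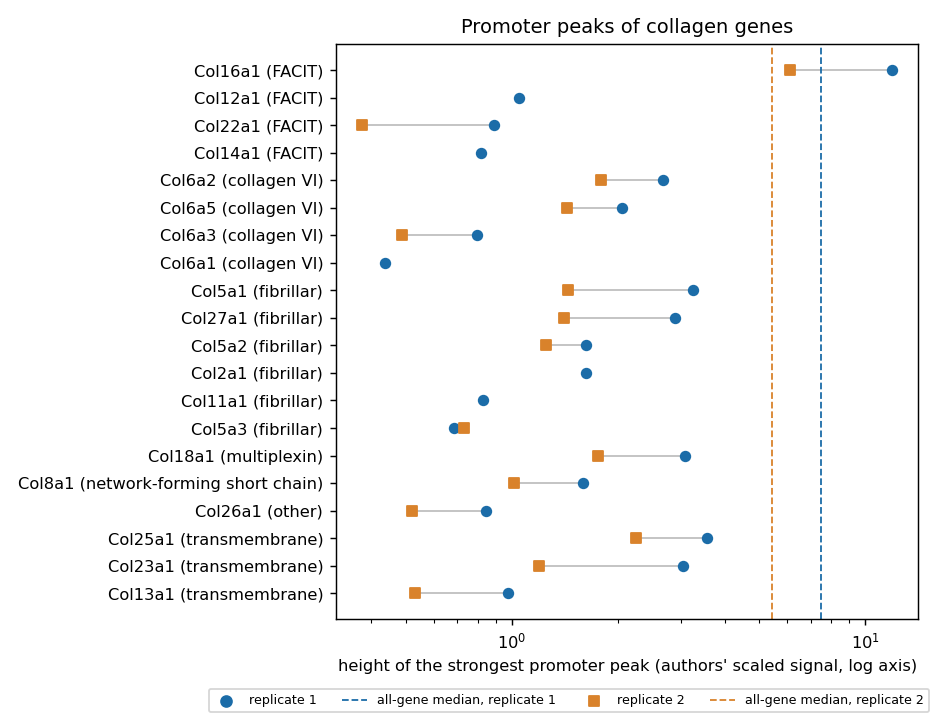
Height of the strongest promoter peak (authors' scaled signal, log axis) of the 20 collagen genes with a promoter peak, by structural class; circles are replicate 1, squares are replicate 2, and dashed lines are the medians over all genes with a promoter peak (7.47 and 5.43). Only Col16a1 lies to the right of its library's line, at 11.9 and 6.14, and 5 genes have no square.

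Among the 8 fibrillar chains, 4 had a promoter peak in both libraries. Col5a1, Col5a2 and Col5a3 encode the chains of collagen V, which starts and narrows fibrils of collagen I. Col5a1 measured 3.25 in replicate 1 and 1.44 in replicate 2, in a peak over its 5′ end. Col5a2 measured 1.62 and 1.25. Col5a3 measured 0.687 and 0.733, the lowest of the 4 in both libraries. Col27a1, a fibrillar collagen known from cartilage, measured 2.9 and 1.4 at the peak printed above, which lay 1337 bp inside the gene at a later annotated start. Col2a1, the main collagen of cartilage fibrils, and Col11a1, a chain of the cartilage collagen XI, had promoter peaks in replicate 1 alone, of 1.62 and 0.826. The Col2a1 peak of 1.62 lay near a noncoding start, 2997 bp from the nearest coding start. The other Col2a1 peak, 159 bp from a coding start, measured 0.362. Col11a2, the partner chain of Col11a1, and Col24a1, a fibrillar collagen of bone, had none in either.

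Of the 9 FACIT genes, 2 had a promoter peak in both libraries. Col16a1 encodes a minor FACIT chain found with fibrils. Its promoter peak measured 11.9 in replicate 1 and 6.14 in replicate 2, at the 69.3 and 54.9 percentile of all genes' strongest promoter peaks, and covered the start site of both Col16a1 and the antisense gene Gm12963. DNase-seq has no strand, so the signal at that shared start cannot be divided between the pair. Col22a1, known from the junctions of muscle with tendon, measured 0.891 and 0.377, the lowest replicate 2 height of the group. Col12a1 and Col14a1, which bind the surface of collagen I fibrils in dense connective tissue, measured 1.05 and 0.817 in replicate 1 and had no promoter peak in replicate 2. Col9a1, Col9a2 and Col9a3, the chains that coat cartilage fibrils, had none in either library, nor did Col19a1 and Col20a1.

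Collagen VI filaments are built from the chains of Col6a1, Col6a2 and Col6a3, and Col6a4 to Col6a6 encode chains like that of Col6a3. Col6a2 measured 2.68 in replicate 1 and 1.79 in replicate 2, and Col6a3 measured 0.798 and 0.489. Col6a1, next to Col6a2 on chromosome 10, had a peak in replicate 1 alone, at 0.436 the lowest of the 20. Its neighbourhood was not empty: 4 shared peaks lay upstream, at positions from -9053 to -2393 bp relative to its 5′ end, with heights of 0.483 to 2.37 in replicate 1 and 0.754 to 0.927 in replicate 2. Col6a5 had its stronger promoter peak (2.05 and 1.43) 79732 bp into the gene, near an internal noncoding start. A lower one (1.22 and 1.01) lay at the 5′ end. Col6a4 and Col6a6 had none.

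Of the 4 transmembrane collagens, 3 had a promoter peak in both libraries. Col25a1, known from motor nerve development and from amyloid plaques, measured 3.56 and 2.24, again at an internal start (49240 bp from the 5′ end). Col23a1 measured 3.04 and 1.19 just upstream of its start. Col13a1, which acts at the neuromuscular junction, had a weak peak at its 5′ end of 0.919 and 0.53; in replicate 1 an internal noncoding start had a slightly higher one of 0.974. Col17a1, the hemidesmosome collagen of skin, had none.

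The multiplexins are proteoglycan collagens of basement membrane zones. Col18a1, the source of the fragment endostatin, had 4 promoter peaks in each library, spread over its 3 groups of start sites, and the strongest measured 3.09 and 1.75. Col15a1 had no promoter peak in either library. Col8a1, a short chain of vessel walls and of the corneal endothelium, measured 1.59 and 1.01, while its partner Col8a2 and Col10a1, the collagen of hypertrophic cartilage, had none. Col7a1, which forms the anchoring fibrils of skin, and Col28a1 had none. Col26a1 measured 0.844 and 0.52, and this peak lay near the start of a noncoding transcript, 127298 bp into the gene and 127121 bp from the nearest coding start in replicate 1.

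The authors' table of false discovery rates (FDR) lists intervals with a rate below 0.05, and 12 of the 15 members without a promoter peak had no such interval in the promoter window of either library (80%), near the 84.6% of all genes without a promoter peak. The other three were Col24a1, with a lowest FDR of 0.00497 in replicate 1 and 0.04 in replicate 2, Col15a1, with 0.0259 and 0.0268, and Col8a2, with 0.0388 in replicate 1 and no listed interval in replicate 2. The peaks used here were at an FDR of 0.001. For the members with a peak in replicate 1 alone, values are given without a share over all genes of that state. In replicate 2 the lowest FDR was 0.00109 for Col14a1, 0.00152 for Col11a1, 0.00196 for Col2a1 and 0.0184 for Col6a1; only Col12a1 had no interval below 0.05. In the authors' larger peak sets, Col11a1, Col14a1, Col2a1 and Col6a1 had a promoter peak in both libraries, which raised the count to 19 of 35, while the share over all genes was 66.4%.

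Collagen promoters are poorer in CpG dinucleotides than most, with a median observed over expected ratio of 0.428 around the gene's 5′ end beside 0.568 over all genes. When all genes were divided into 3 equal bins of that ratio, 2 of 10 members in the bin below 0.313 had a promoter peak in both libraries (20%), near the 22.1% of all genes in that bin. In the middle bin, 9 of 18 members did (50%), beside 72.1%. In the bin above 0.717, 4 of 7 did (57.1%), beside 92.3%. The 3 CpG-rich members that did not were Col15a1, Col19a1 and Col12a1, the last with its peak in replicate 1 alone. Median heights of the members were lower than those of all genes in each bin and library, for example 2.9 and 1.29 beside 10.2 and 7.12 in the CpG-rich bin.

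**Figure D2:**
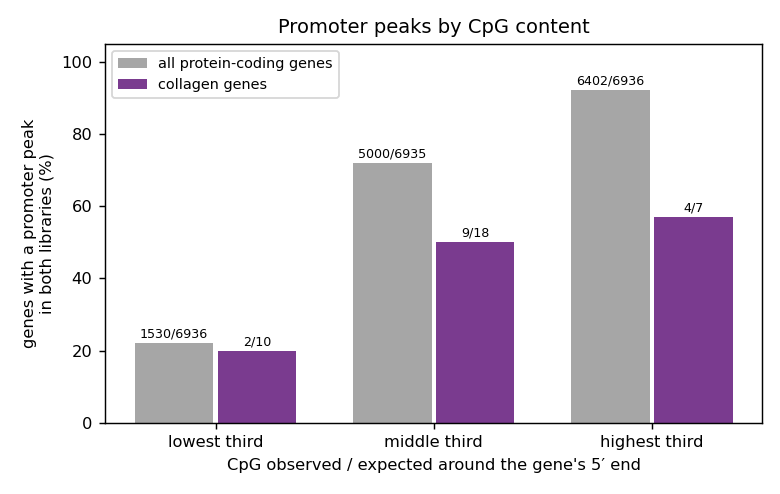
Percent of genes with a promoter peak in both libraries, for all protein-coding genes (grey) and collagen genes (purple), in 3 equal bins of the CpG observed over expected ratio; the fractions above the bars are genes with a peak over genes in the bin. The bars are close in the lowest bin (20% and 22.1%) and apart in the others (50% and 72.1%, 57.1% and 92.3%).

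Shared peaks were then counted over whole genes, promoters included. In the gene bodies with 10 kb on each side, 30 of 35 members (85.7%) had at least 1 shared peak, beside 77.5% of all genes. The members held 158 shared peaks, with a median of 3 per member and 2 per gene over all genes. Collagen genes are long, with a median of 107 kb beside 17.6 kb, so per 100 kb of window the members had a median of 3.1 and all genes 4.71. The direction depended on the window: without the flanks the medians were 2.38 for members and 1.82 for all genes, and with only peaks more than 1 kb from every start they were 1.91 and 1.16. With only the higher 50% of each library's peaks, members had a median of 0 shared peaks and all genes 1. Among genes of at least 100 kb, the 20 members and all genes had the same median count of 5, at 3.05 and 2.64 per 100 kb. Shared footprints had a median of 5 for members and for all genes, and without the flanks the medians were 3 and 1. Col9a1, Col9a2, Col10a1, Col11a1 and Col17a1 had no shared peak at all.

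Of the 158 shared peaks, 99 (62.7%) lay in introns, 22 (13.9%) at the member's own promoters, 7 (4.43%) in exons, 17 (10.8%) in the upstream flank and 13 (8.23%) in the downstream flank. Over all genes 31.2% lay in introns and 32.9% at promoters. Part of that gap goes with length: among genes of at least 100 kb the intron share was 72.3% for members and 67.1% for all genes, and the promoter share 15.1% and 21.4%. A further point concerns neighbours, since 17 of the 158 peaks, in 9 members, lay within 1 kb of the start of another gene. Among them, the Col5a1 peaks and that at the Col16a1 5′ end also lay at the member's own promoter. Without such peaks the median stayed at 3 per member, while over all genes it went from 2 to 1. The highest peak in the window of Col16a1 (29.1 and 25.9) lay at the start of Pef1, and that of Col7a1 (26.1 and 21.8) at Pfkfb4. All 4 shared peaks of Col11a2 and both of Col9a3 lay at starts of other genes, among them Rxrb and Ogfr.

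A few members held many of the shared peaks of the genes and flanks. Col18a1 had 20 shared peaks (14.9 per 100 kb), Col27a1 had 14 (9.93), Col13a1 had 11 (6.84) and Col23a1 had 10 (3.18). Col5a1 and Col15a1 had 9 each (5.2 and 7.2). Per 100 kb, Col6a1 (13.4), Col16a1 (11.2) and Col8a2 (10.5) stood above all of these but Col18a1. The counts of shared peaks include a pair of overlapping replicate 1 peaks in Col18a1 and another in Col13a1. Each pair met a single replicate 2 peak, and both peaks of the pair were counted. In Col18a1 the highest was the intron peak printed above, 38387 bp from the 5′ end, with 11.8 in replicate 1 and 12.3 in replicate 2, at the 96.3 and 96.5 percentile of all peaks. A second intron peak at chr10:77146861-77147440 measured 10.7 and 11.4, and another at chr10:77142441-77142620 measured 9.46 and 6.87. All of these stood above the gene's own promoter peaks in both libraries. In Col27a1, 10 of the 14 shared peaks lay between 1337 and 22457 bp from the 5′ end. One more Col27a1 peak, of 4.34 and 2.33, lay within 1 kb of the start of the microRNA gene Mir455. In Col23a1 the printed intron peak measured 14.7 and 8.48 and lay 249901 bp from the 5′ end; it was the highest distal peak of the group in replicate 1. Col15a1, without a promoter peak, had 8 of its 9 shared peaks between 17910 and 47680 bp inside the gene, the highest at 5.34 and 3.57.

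**Figure D3:**
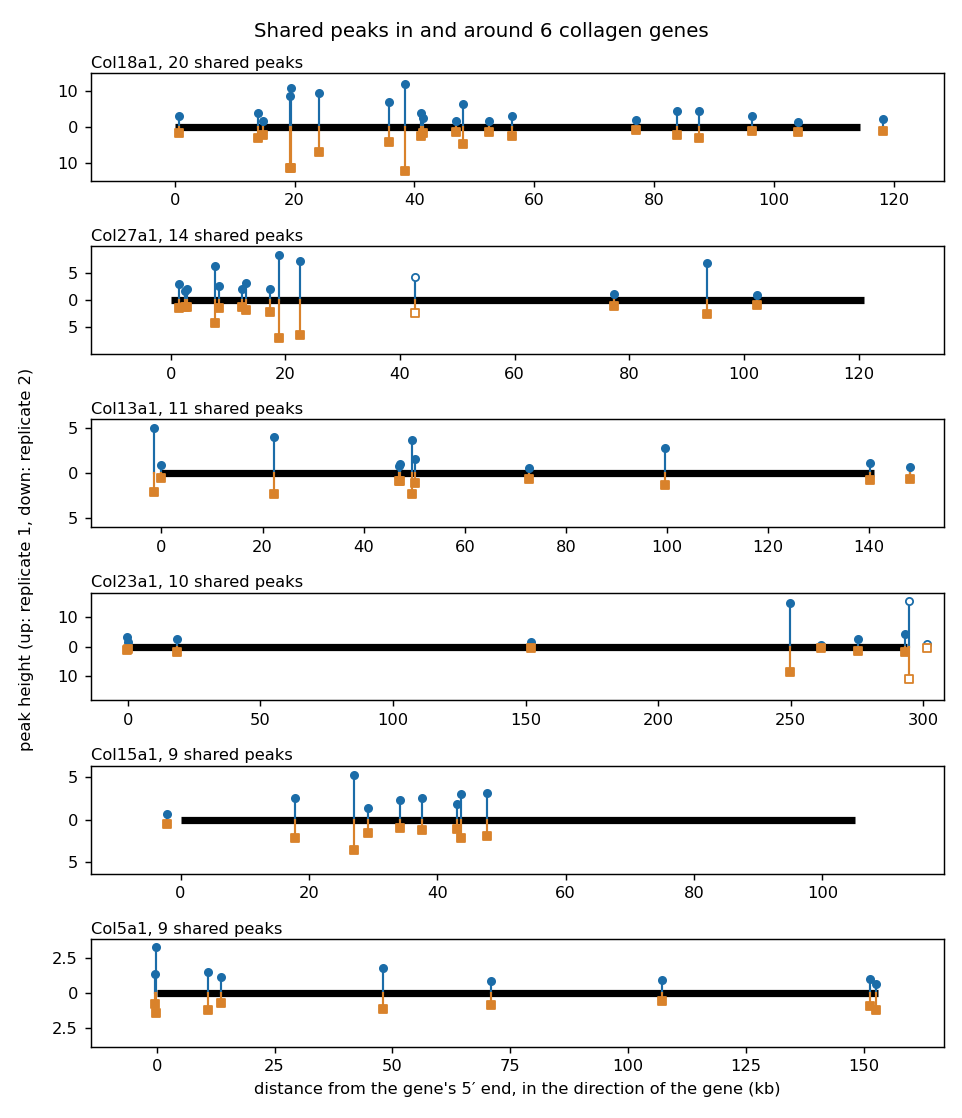
Shared peaks of the 6 collagen genes with the most, by distance from the gene's 5′ end in kb. The black bar is the gene, and stems upward give the height in replicate 1 and stems downward that in replicate 2. Open symbols are peaks outside the gene's own promoters that lie within 1 kb of another gene's start. Each panel has its own height scale. Col18a1 has its highest peak inside the gene (11.8 and 12.3), and Col15a1 has none at its 5′ end.

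A shared peak more than 1 kb from every annotated start, called distal here, was found for 27 members (77.1%) and for 54.1% of all genes; for genes of at least 100 kb the shares were 95% and 84%. Of the 14 members with both a promoter peak in both libraries and a distal peak, 8 (57.1%) had a distal peak higher than the promoter in both libraries. Over all such genes the share was 20.7%. The members' distal peaks were not high themselves: where a gene had any, the median of the highest was 2.57 in replicate 1 and 1.22 in replicate 2 for members and 3.22 and 1.82 for all genes. Among genes of at least 100 kb the share with a distal peak above the promoter was 54.5% of members, 6 of 11, and 30.5% of all genes. The 8 were Col13a1, Col18a1, Col22a1, Col23a1, Col26a1, Col27a1, Col5a3 and Col6a3. In Col16a1, Col25a1, Col5a1, Col5a2 and Col6a5 the promoter was the higher in both, and Col8a1 was split. Of the 15 members without a promoter peak, 9 (60%) had a distal peak, beside 28.2% of all genes without one; among genes of at least 100 kb it was 6 of 6 members and 60.1%. Col12a1 and Col2a1, with promoter peaks in replicate 1 alone, had distal intron peaks in both libraries of 6.76 and 4.19, and of 5.99 and 3.78.

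**Figure D4:**
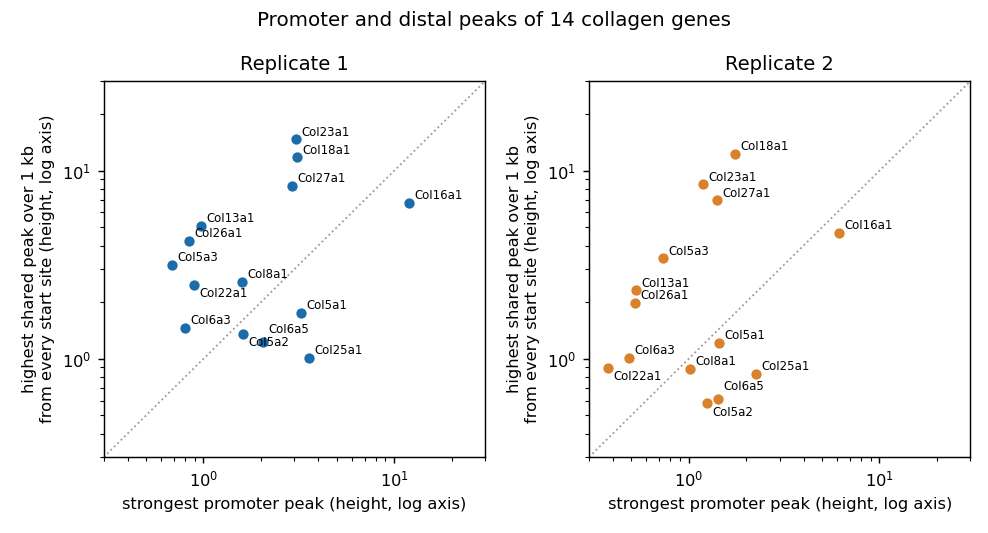
Highest shared peak more than 1 kb from every start site against the strongest promoter peak, both as peak height on log axes, for the 14 collagen genes with both; left is replicate 1 and right is replicate 2. The dotted line marks equal heights; 8 genes lie above it in both panels and 5, Col16a1 among them, lie below it in both.

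Short exact motifs were searched on both strands in 300 bp windows around the peaks. A match is only a run of letters. The 22 motifs were the GC box GGGCGG, the CCAAT box, AP-1 TGANTCA, CRE TGACGTCA, ETS CCGGAAG, the E-box CACGTG, the SMAD palindrome GTCTAGAC, RUNX TGTGGTT, SOX ACAATGG, TEAD GGAATGT, NRF1 GCGCATGCG, HNF1 GTTAAT, HNF4 CAAAGTCCA, the nuclear receptor element AGGTCA, the GATA factor element AGATAA, NFI TTGGCA, FOX TGTTTAC, STAT TTCNNNGAA, RBPJ GTGGGAA, the CTCF core AGGGGGC, the TATA box TATAAA and the CArG box. The GC box and the CTCF core can share letters. At the 15 member promoters with a peak in both libraries, 8 windows held a GC box (53.3%), beside 67.7% of the 12932 gene promoters of the same state, and 6 held a CCAAT box (40%), beside 40%. A GC box inside a footprint of both libraries was found for 3 members (20%: Col16a1, Col18a1 and Col6a2), beside 43.3%. Inside a footprint of replicate 1, whatever replicate 2 showed, it was found for 7 of the 15 members, beside 6930 of the 12932. The gap thus depended on the need for a footprint in both libraries. No member window held the ETS letters, which 19.3% of all such promoters did. The CTCF core was in 3 windows (20%, beside 17.6%) and lay in footprints of both libraries in the printed Col16a1 and Col27a1 promoters; the first also had the NFI letters in such a footprint.

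Among the 122 distal shared peaks of the members, 40 windows held the NFI letters (32.8%), beside 25.3% of all distal windows near genes. Counting only NFI letters inside footprints of both libraries, the shares were 4.92% and 4.74%. The AP-1 letters were in 20 (16.4%, beside 11.6%) and the TEAD letters in 12 (9.84%, beside 6.88%). In none of these windows did they lie within a footprint of both libraries. Over all distal windows that was the case in only 0.231% for AP-1 and 0.0854% for TEAD. At shares that low, finding none among 122 windows says little. The nuclear receptor element was about as frequent as elsewhere, in 35 windows (28.7%, beside 29.3%), and the HNF1 letters were in 13 (10.7%, beside 12.2%). The CTCF core was in 11 (9.02%, beside 8.13%), among them the printed Col23a1 peak, where it lay in footprints of both libraries. Several windows come from the same gene, so they are not independent, and no test was made.

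The genes that act on collagens differed in how many had promoter peaks. The share of all genes with one in both libraries was 62.2%. Of 21 genes for collagen folding and modification, 20 had a promoter peak in both libraries. Their median CpG ratio was 0.77, which falls in the bin where 92.3% of all genes had such a peak. The highest were P4hb (27.5 and 31.9), a subunit of prolyl 4-hydroxylase, and P3h1 (27.9 and 20.3), a prolyl 3-hydroxylase. Only P4ha3 had none. Of 13 genes for procollagen processing and crosslinking, 9 had a promoter peak in both libraries. The highest of these were the lysyl oxidase family gene Loxl3 (9.96 and 5.74) and Pcolce (3.21 and 2.65), which enhances procollagen cleavage. Loxl2 had none in either. Of 10 collagen receptor genes 5 did, with the integrin chain Itga1 (12.3 and 8.32) and the discoidin receptor Ddr1 (9.72 and 7.84) highest by mean percentile over the libraries, and with Itga11 and Gp6 without a peak. Of 10 matched genes for collagen breakdown 4 did, led by the inhibitors Timp3 (9.28 and 5.66) and Timp2 (2.66 and 1.75), while Mmp8, Mmp13, Ctsk, Timp4 and Fap had none. All 7 collagen genes that the rule leaves out had a promoter peak in both libraries, with a median height of 5.12 and 2.61. Among these, Col4a1 of the basement membrane measured 8.15 and 6.69, and Col1a1 measured 6.37 and 2.61. Col4a3 and Col4a4 had the same values, 5.12 and 3.78, and may have been counted from the same peak, which was not examined. Col4a2 measured 3.17 and 2.15. The lowest were Col1a2 (1.22 and 1.66) and Col3a1 (0.798 and 0.652), beside medians of 1.61 and 1.25 for the members with a peak.

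Markers of cell types that a kidney sample could hold were counted the same way. A promoter peak in both libraries was found for 5 of 6 proximal tubule markers, 3 of 5 podocyte markers, 6 of 6 endothelial markers and 5 of 9 matched fibroblast and mural markers. It was found for 5 of 9 cartilage markers, 1 of 8 epidermal markers and 1 of 6 striated muscle markers. The share over all genes was 62.2%. The part of cell composition in the collagen values was not tested.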

How the data were processed

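DNase-seq was done on 2 kidney libraries, biological replicates 1 and 2 of 1 group per the labels. Per the deposited description files, the authors derived peaks, footprints and FDR intervals from each library's own filtered alignment to mm10; replicates were not pooled. The sources used here name no aligner, caller or tool version. The deposited peak height is a signal scaled by the authors, on a scale that is not stated. The deposited FDR is taken as an adjusted p-value between 0 and 0.05, and the deposited footprint sets carry the constant 0.01. The smaller of the authors' 2 peak sets per library was used. No read counts were used, so depth is known only through the number of peaks and no interval was computed.

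Overlaps, distances and motif matches were computed in Python 3.11.15 with numpy 2.4.6 and pysam 0.24.0. The promoter overlaps were tested on planted peaks and, for a subset of genes, against a direct comparison of every peak with every start site. Footprints were matched over 50% of the shorter, and a peak belonged to a gene by its midpoint. The CpG ratio was taken over 1001 bp around the gene's 5′ end. Every member is named. The members with a promoter peak in both libraries, those with the most shared peaks and the highest distal peaks are given in full. The 7 collagens that the rule leaves out are all named with their heights. In each other comparison list up to 2 genes with the highest promoter peaks, and up to 5 without a peak, are named. Members, lists and motifs were chosen with earlier results of these data known. Alternatives for windows, flanks, peak sets and overlap were tried. X-linked genes were left out, and the alleles of the hybrid were not analysed here. The sequence of another distal peak is not reported here.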

Additional observations from a re-analysis of the deposited data

How the results depend on the processing

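With the higher 50% of each library's peaks, 4 members had a promoter peak in both libraries instead of 15, beside 54.3% of all genes. In replicate 1 it was 11 instead of 20, beside 61%, and in replicate 2 it was 4 instead of 15, beside 54.3%. The median of shared peaks was then 0 per member and 0 per 100 kb, beside 1 and 2.54 over all genes. Members thus went from above all genes to below them in the count per gene. With the authors' larger peak sets, the count of members whose promoter peak was found in replicate 1 alone was 3 instead of 5. Over all genes that share was 5.7% instead of 6.22%. The median of shared peaks rose from 3 to 5, beside a rise from 2 to 3 over all genes. A flank of 50 kb gave a median of 8, beside 7 over all genes. Distal peaks taken alone gave 1.91 per 100 kb instead of 3.1, beside 1.16 over all genes instead of 4.71, and no flank gave 2.38 beside 1.82; in both, members were above all genes, not below. Without a flank the median of shared footprints was 3 instead of 5, beside 1 over all genes instead of 5. With 1 library left out, so that peaks need not be shared, each median was highest without replicate 2. It ranged from 3 to 6 peaks, beside 3 to 4 over all genes. Per 100 kb it ranged from 3.1 to 5.98, beside 4.87 to 8.9. For footprints it ranged from 9 to 17, beside 9 to 15. Why the values moved was not tested. Over the other settings the count of promoters with a peak in both libraries was 14 to 20, beside 56.7% to 68.4% of all genes. It lost Col8a1 at 500 bp and Col26a1 with coding starts only. Settings chosen after seeing the data gave 12 members when only the gene's 5′ end counted (57.3% of all genes), without Col25a1, Col26a1 and Col27a1. They also gave medians of 3 and of 2.09 per 100 kb without peaks at other genes' starts, beside 1 and 2.99 over all genes. No paired analysis was possible because there is 1 group. With 1 group of 2 libraries no difference could be tested, and depth could be read only from peak numbers.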
